A study of Mus musculus with 15 samples.

Results

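Microglia, the resident immune cells of the brain, are recognised in healthy tissue by a set of transcripts often called homeostatic, and 9 of them were followed in the mouse cerebellum: P2ry12, P2ry13, Tmem119, Cx3cr1, Fcrls, Siglech, Csf1r, Gpr34 and Sall1. They were chosen by name from knowledge of these cells, with earlier results of these data known. They make up 9 of the 24421 genes in the count tables, and all 9 had enough reads to be tested. Cerebella came from FVB mice of 3 genotypes, with 5 RNA-seq libraries each: wild type, Pcp2-ATXN1[82Q] and Pcp2-ATXN1[82Q]V591A;S602D, called the substituted transgene from here on. ATXN1 with an expanded glutamine tract causes spinocerebellar ataxia type 1, and the pair of substitutions weakens its binding to the transcriptional repressor CIC. The Pcp2 promoter is active in Purkinje cells, so microglia are not the cells in which it drives the transgenes. Age, sex and the number of founder lines are not given in the labels, nor do they tie each library to its own animal. The p-values therefore measure only how these libraries vary.

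The homeostatic genes are expressed by surveying microglia and are known to be lowered when microglia take on activated or disease-associated states. Survival of microglia depends on the receptor encoded by Csf1r and its ligands CSF1 and IL-34. Their identity is kept by transforming growth factor beta signalling and by the transcription factors PU.1 (gene Spi1), IRF8 and SALL1. Cx3cr1 encodes the receptor for fractalkine, a neuronal ligand encoded by Cx3cl1, and P2RY12 and P2RY13 sense extracellular ADP.

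Because PU.1 is a lineage factor for these cells, the RefSeq promoters of the genes (GRCm38.p6, from 250 bases before to 50 after the transcription start) were searched on both strands for a PU box, spelled GAGGAA, and for a core of the wider ETS family, spelled GGAAGT. Entries were found for 6 of the 9 genes, Cx3cr1, Fcrls, P2ry12, P2ry13, Sall1 and Siglech. The neighbouring receptor genes P2ry12 and P2ry13, the gene with the largest rise in ATXN1[82Q] (Fcrls) and the fractalkine receptor gene Cx3cr1 are shown 5′ to 3′ on the strand of the gene, with either motif in capitals. Their positions are chr3:59262936-59263235, chr3:59210833-59211132, chr3:87263475-87263774 and chr9:120068247-120068546, all on the minus strand.
P2ry12 promoter: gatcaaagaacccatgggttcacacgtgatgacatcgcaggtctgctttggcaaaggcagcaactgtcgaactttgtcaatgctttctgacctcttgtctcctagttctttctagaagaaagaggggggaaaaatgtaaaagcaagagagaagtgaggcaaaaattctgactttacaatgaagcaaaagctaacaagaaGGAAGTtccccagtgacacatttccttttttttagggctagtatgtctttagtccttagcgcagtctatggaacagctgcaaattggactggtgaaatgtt
P2ry13 promoter: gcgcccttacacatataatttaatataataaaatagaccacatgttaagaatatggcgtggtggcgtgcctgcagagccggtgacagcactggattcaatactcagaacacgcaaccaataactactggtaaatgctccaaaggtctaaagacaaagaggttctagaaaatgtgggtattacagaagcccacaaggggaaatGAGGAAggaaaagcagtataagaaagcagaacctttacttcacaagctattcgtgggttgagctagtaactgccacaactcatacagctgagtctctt
Fcrls promoter: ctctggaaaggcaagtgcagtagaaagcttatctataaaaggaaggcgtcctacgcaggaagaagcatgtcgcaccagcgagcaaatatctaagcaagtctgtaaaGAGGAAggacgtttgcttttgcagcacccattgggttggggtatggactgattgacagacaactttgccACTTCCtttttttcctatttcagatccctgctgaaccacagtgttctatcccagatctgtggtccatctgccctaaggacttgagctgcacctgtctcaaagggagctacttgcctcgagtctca
Cx3cr1 promoter: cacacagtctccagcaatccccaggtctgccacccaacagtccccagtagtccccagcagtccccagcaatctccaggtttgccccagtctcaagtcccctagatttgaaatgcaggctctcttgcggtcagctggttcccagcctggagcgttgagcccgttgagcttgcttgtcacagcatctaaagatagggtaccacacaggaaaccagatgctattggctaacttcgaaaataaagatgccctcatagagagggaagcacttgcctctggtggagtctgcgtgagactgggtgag
The PU box was found in 3 of the 6 genes (Fcrls, P2ry13 and Siglech) and the ETS core in 4 (Fcrls, P2ry12, Siglech and 1 of the 3 Sall1 entries). Neither was in the Cx3cr1 window. Of 32851 RefSeq promoters of that length, 28.3% held the PU box, 23.8% the ETS core and 43.4% at least 1 of them. This background counts promoter entries, whereas the members are counted by gene, with 3 entries for Sall1. Each match describes letters in the window only.

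Depth ran from 36467948 to 42818401 reads on genes per library, and the 9 genes had from 43 reads (Fcrls) to 2402 reads (Csf1r) in a library. Transcripts that define the labelled tissue were present: Pcp2 of Purkinje cells stood at a mean of 106 CPM (read counts scaled to a common library size) in wild type and Cbln3 of granule cells at 1730 CPM. Libraries also held varying amounts of choroid plexus transcripts, with the summed level of 7 markers between 195 and 7518 CPM, and 7 libraries had Ttr, the most abundant of these, under 100 CPM. These 7 were 3 wild-type, 2 ATXN1[82Q] and 2 substituted-transgene libraries.

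Per kilobase of exon, P2ry12 and Csf1r were the highest of the 9 genes in wild-type cerebellum, at mean levels of 5.71 and 5.41 CPM per kb, and their libraries overlapped. Tmem119 (3.64) and Cx3cr1 (3.42) followed, again with overlapping libraries, then P2ry13 (2.42), Gpr34 (2.31) and Sall1 (2.15), with overlap between P2ry13 and Gpr34 and between Gpr34 and Sall1 but none with Cx3cr1 above P2ry13 or Siglech below Sall1. Siglech (1.04) and Fcrls (0.550) were lowest and were separated from the rest and from each other. The substituted transgene left the genes in this order of mean levels. In ATXN1[82Q] the order differed: Csf1r led at 9.13 CPM per kb, clear of P2ry12 at 7.42, Cx3cr1 at 6.10 lay above Tmem119 at 5.11, and Gpr34 (3.60) and P2ry13 (3.36) overlapped.

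All 9 homeostatic genes were higher in ATXN1[82Q] cerebella than in wild type. Wild type carries no transgene, so the expanded tract, the amount of ATXN1 and the insertion site cannot be told apart in this comparison. The rises ran from 1.30-fold for P2ry12 and Sall1 to 2.17-fold for Fcrls, with a median log2 fold change of 0.59 against 0.0069 over all 15843 genes tested. All 9 passed an adjusted p under 0.05 in edgeR, against 16.6% of all genes called higher and 14.9% called lower. In each of the 9 genes every ATXN1[82Q] library lay above every wild-type library, against 9.36% of all genes. In tissue RNA, more cells of a type and more RNA per cell cannot be told apart. Neuronal markers stood lower in the same libraries: Pcp2 at 58.1 ± 4.65 against 106 ± 3.00 CPM, Calb1 of Purkinje cells at 452 ± 40.2 against 1050 ± 49.6 CPM, and the granule cell genes Gabra6 at 906 ± 79.8 against 1280 ± 116 CPM and Cbln3 at 1267 ± 64.5 against 1730 ± 135 CPM (SD, n = 5). With the substituted transgene Pcp2 was at 103, Calb1 at 795, Gabra6 at 1247 and Cbln3 at 1608 CPM. Their part in the rise of the 9 genes was not tested.

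After Fcrls, the receptors for chemokine and growth factor signals had the largest fold changes. Csf1r, the CSF1 receptor kinase gene (ENSMUSG00000024621, chromosome 18, 61100598 to 61132149, plus strand), stood at 31.5, 30.9, 28.5, 33.5 and 31.7 CPM in wild-type replicates 1 to 5. It stood at 56.1, 50.7, 51.7, 50.8 and 54.2 CPM in ATXN1[82Q] and at 32.8, 34.1, 34.1, 33.7 and 30.3 CPM with the substituted transgene. The ATXN1[82Q] libraries thus formed a separate group, and the other genotypes overlapped. The rise was 1.69-fold (95% interval 1.57 to 1.81, edgeR adjusted p = 6.15e-09), from 31.2 ± 1.81 to 52.7 ± 2.37 CPM (SD, n = 5). Csf1r shares 873 exon bases, 15.1% of its exon length, with Hmgxb3 on the opposite strand, and the strand setting of the counting is not given. Hmgxb3 itself did not pass the test (log2 fold change 0.05, adjusted p = 0.361).

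Cx3cr1, the fractalkine receptor gene (ENSMUSG00000052336, chromosome 9, 119901616 to 120069879, minus strand), had 14.3, 13.6, 14.3, 16.6 and 18.3 CPM in wild type. Its ATXN1[82Q] libraries had 30.1, 24.4, 28.1, 26.2 and 28.7 CPM, and the substituted-transgene libraries 17.6, 18.8, 15.7, 16.5 and 13.5 CPM. The lowest ATXN1[82Q] library was above the highest of the other 10. The rise over wild type was 1.78-fold (95% interval 1.56 to 2.04, edgeR adjusted p = 3.14e-06). The level of Cx3cr1 relative to Csf1r in the same library stayed within an overlapping range, a CPM ratio of 0.440 to 0.578 in wild type and 0.481 to 0.543 in ATXN1[82Q].

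The ADP receptor genes had smaller fold changes. P2ry12 (ENSMUSG00000036353, chromosome 3, 59216272 to 59262871, minus strand), which guides microglial processes toward injured cells, had 14.1, 12.7, 14.9, 15 and 16 CPM in wild type. It had 18.1, 19.4, 19.0, 17.6 and 20.4 CPM in ATXN1[82Q] and 15.8, 17.4, 15.6, 14.6 and 13.4 CPM with the substituted transgene. The ATXN1[82Q] libraries were above all others, but the lowest of them, 17.6 CPM, was close to the highest substituted-transgene library, 17.4 CPM. The rise over wild type was 1.30-fold (95% interval 1.17 to 1.44, edgeR adjusted p = 0.00077). Relative to Csf1r in the same library, P2ry12 was lower in ATXN1[82Q], with CPM ratios of 0.323 to 0.383 against 0.411 to 0.524 in wild type and 0.432 to 0.510 with the substituted transgene.

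P2ry13 lies beside P2ry12 on chromosome 3 (ENSMUSG00000036362, 59207892 to 59210882, minus strand), and both sit within Med12l on the opposite strand, with 9 shared exon bases for P2ry12 and 0 for P2ry13. Its wild-type libraries lay between 5.25 and 7.0 CPM, those of ATXN1[82Q] between 7.95 and 9.79 CPM, and those of the substituted transgene between 5.84 and 8.0 CPM. The first 2 groups did not overlap, and the third overlapped with both. The rise over wild type was 1.38-fold (95% interval 1.20 to 1.59, edgeR adjusted p = 0.00122). The ratio of P2ry12 to P2ry13 overlapped among the genotypes, between 2.19 and 2.84 for wild type, 2.08 and 2.44 for ATXN1[82Q] and 2.17 and 2.36 for the substituted transgene. Gpr34, a receptor gene for lysophosphatidylserine (ENSMUSG00000040229, chromosome X, 13632089 to 13640858, plus strand), lay between 4.41 and 5.67 CPM in wild type, between 6.41 and 9.32 CPM in ATXN1[82Q] and between 4.31 and 5.29 CPM with the substituted transgene. It rose 1.56-fold (95% interval 1.34 to 1.81, edgeR adjusted p = 0.000145).

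Of the surface proteins, Fcrls had the largest rise of the 9 genes and the widest spread. Fcrls, which encodes a scavenger receptor related to Fc receptors (ENSMUSG00000015852, chromosome 3, 87250758 to 87263738, minus strand), stood at 1.28, 1.42, 1.30, 1.34 and 1.08 CPM in wild type. In ATXN1[82Q] it stood at 3.59, 2.62, 3.49, 2.03 and 2.26 CPM, and with the substituted transgene at 1.36, 1.37, 1.49, 1.19 and 1.25 CPM. Replicates 1 and 3 of ATXN1[82Q] were the highest, and the coefficient of variation there, 25.4%, was the highest of any member in any genotype. The rise was 2.17-fold (95% interval 1.72 to 2.74, edgeR adjusted p = 4.82e-05).

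Tmem119, a membrane protein gene used as a microglial marker (ENSMUSG00000054675, chromosome 5, 113793729 to 113800516, minus strand), was the tightest, with a coefficient of variation of 3.62% in ATXN1[82Q]. Its values were 9.14, 8.25, 7.72, 8.84 and 8.16 CPM in wild type and 11.9, 11.9, 11.3, 11.6 and 12.5 CPM in ATXN1[82Q]. With the substituted transgene they were 8.16, 9.09, 8.98, 8.55 and 8.21 CPM, inside the wild-type range. The rise in ATXN1[82Q] was 1.40-fold (95% interval 1.29 to 1.53, edgeR adjusted p = 9.95e-06). Siglech, a sialic acid-binding lectin gene (ENSMUSG00000051504, chromosome 7, 55768178 to 55778925, plus strand), lay between 2.96 and 4.03 CPM in wild type, between 4.67 and 6.75 CPM in ATXN1[82Q] and between 3.82 and 4.49 CPM with the substituted transgene. It rose 1.5-fold (95% interval 1.28 to 1.76, edgeR adjusted p = 0.000555).

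Sall1, the transcription factor gene of the set (ENSMUSG00000031665, chromosome 8, 89027235 to 89044162, minus strand), had 12.1, 8.95, 11, 12.6 and 12.1 CPM in wild type. It had 15.2, 15.2, 13.6, 13.6 and 16 CPM in ATXN1[82Q] and 13.9, 12.5, 11.1, 11.5 and 13 CPM with the substituted transgene. Wild-type replicate 2 was the lowest library, and 1 substituted-transgene library lay within the ATXN1[82Q] range. The rise over wild type was 1.30-fold (95% interval 1.14 to 1.48, edgeR adjusted p = 0.00347), and in the 5 libraries of these genotypes with Ttr under 100 CPM the adjusted p was 0.0512, at a log2 fold change of 0.40 against 0.38 in all libraries.

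None of the 9 genes was called between the substituted transgene and wild type, the comparison that bears on the expanded protein with weakened CIC binding. No member passed in edgeR, at an unadjusted p under 0.05 or in DESeq2, where 0.208% of all genes were called higher by edgeR and 5.45% were higher at the unadjusted threshold. In no gene did all 5 substituted-transgene libraries lie above all wild-type libraries (1.13% of all genes), and none was called lower (1.20% of all genes). All 9 fold changes were above 1, with a median log2 fold change of 0.08 against 0.0059 over all genes. Siglech had the largest, a log2 fold change of 0.21 (95% interval of the fold 0.983 to 1.35, edgeR adjusted p = 0.496). For Csf1r the interval was 0.985 to 1.14, and for P2ry12 0.949 to 1.17, so the rises estimated for ATXN1[82Q] lay outside both. For Fcrls, with the fewest reads, it was wider, 0.813 to 1.32.

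Set directly against each other, the transgenes differed in all 9 genes, which were higher in ATXN1[82Q] (edgeR, 13.5% of all genes called higher and 14.6% lower). This comparison shares its ATXN1[82Q] libraries with the comparison against wild type. The substitutions, the amount of ATXN1 and the insertion site cannot be told apart in it. The differences ran from 1.19-fold for Sall1 (adjusted p = 0.0427) to 2.10-fold for Fcrls (adjusted p = 0.000146), with 1.60-fold for Csf1r (adjusted p = 1.62e-07) and 1.23-fold for P2ry12 (adjusted p = 0.00551). The libraries did not overlap in 7 of the 9 genes, against 8.28% of all genes. In P2ry13 and Sall1, 3 of 5 ATXN1[82Q] libraries lay above every substituted-transgene library.

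The direct difference in Sall1 was near the threshold. Without 1 library at a time its log2 fold change stayed between 0.21 and 0.29, while the edgeR call was lost, with adjusted p from 0.0505 to 0.109, on leaving out any of 8 libraries: replicates 1, 2 and 5 of ATXN1[82Q], replicates 2, 3, 4 and 5 of the substituted transgene and wild-type replicate 3, which enters through the shared spread. In the libraries with Ttr under 100 CPM, 2 against 2 for the transgenes, 1512 genes were called in the direct comparison, against 4454 in all libraries. Of the 9 genes, 5 kept a call there. P2ry12 (adjusted p = 0.0759), P2ry13 (0.0893) and Siglech (0.0526) did not, with log2 fold changes of 0.35, 0.38 and 0.59 there against 0.30, 0.34 and 0.38 in all libraries. Sall1 did not either (adjusted p = 0.694), and its log2 fold change was 0.10 there against 0.25.

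The members were then set against transcripts common to white blood cells and their tissue relatives. For every gene the log2 ratio to the mean of 12 such genes, among them Ptprc (CD45), Aif1 (IBA1) and Dock2, was taken in each library. These 12 genes all rose in ATXN1[82Q] (median 0.74 on the log2 scale), and their mean lay 0.68 to 0.95 above the wild-type mean on the log2 scale, against -0.13 to 0.15 in wild type itself and -0.06 to 0.21 with the substituted transgene. The test asks whether a homeostatic gene changed by more or by less than these transcripts.

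The ratio was lower in ATXN1[82Q] than in wild type for 5 of the 9 genes: P2ry12, Sall1, P2ry13, Tmem119 and Siglech (2-sided exact permutation tests over all regroupings of 5 against 5 libraries, adjusted over all genes). None was called higher, against 0.568% of all genes. By this measure 84.0% of all genes were called lower, with a median log2 difference of -0.76, so the count of 5 of 9 is below that background. The reference genes rose by a median of 0.74 on the log2 scale, so a gene that rose less has a lower ratio. With so many genes called, the adjusted p lies close to the exact p. For P2ry12 the log2 ratio was 2.06 to 2.28 in wild type and 1.51 to 1.88 in ATXN1[82Q], a ratio 23.4% lower (exact p = 0.00794, the smallest that 5 against 5 allows, adjusted p = 0.0103). Sall1 was 23.2% lower (exact p = 0.00794, adjusted p = 0.0103). P2ry12 and Sall1 were the members whose libraries did not overlap, which at 5 against 5 is the same as the smallest exact p. The share of all genes without overlap in this ratio was not counted, so the separation is not particular to these members. P2ry13 was 18.5%, Tmem119 17.3% and Siglech 12.2% lower (exact p = 0.0159 and adjusted p = 0.0197 for each).

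The receptors Csf1r, Cx3cr1 and Gpr34 and the scavenger receptor relative Fcrls did not pass this test. Their log2 differences in ratio were -0.01 for Csf1r (exact permutation adjusted p = 0.875), 0.07 for Cx3cr1 (0.259), -0.13 for Gpr34 (0.235) and 0.30 for Fcrls (0.151). Fcrls was called higher against the substituted transgene when ATXN1[82Q] replicate 4 was left out (exact permutation adjusted p = 0.048). The choice of yardstick mattered for part of the set. With 7 complement and adaptor genes in its place, 7 of the 9 were called lower, with Csf1r (log2 difference -0.31) and Gpr34 (-0.43) added (exact permutation adjusted p = 0.00927 for both). The 7 reference genes themselves rose by a median of 1.17 on the log2 scale, against 0.59 for the members, so lower ratios follow from that rise. Under that reference 90.7% of all genes were called lower, so the count of 7 of 9 is also below its background. Against wild type, Cx3cr1 turned to -0.23 (adjusted p = 0.0521) and Fcrls went to -0.00. Between the transgenes the count was 7 as well, against 88.6% of all genes.

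Between the transgenes the same 5 genes had lower ratios in ATXN1[82Q] (83.0% of all genes were called lower and 0.278% higher). The log2 differences were -0.45 for Sall1, -0.40 for P2ry12, -0.36 for P2ry13, -0.33 for Siglech and -0.24 for Tmem119 (exact permutation adjusted p = 0.0105 or 0.0201). Without ATXN1[82Q] replicates 2 and 5 together the Siglech call was lost (adjusted p = 0.0649). With the substituted transgene no member's ratio was called against wild type (log2 differences from -0.03 to 0.15, smallest exact permutation p = 0.0873, for Siglech), where 0.00% of all genes were called in either direction. The exact p cannot go below 0.00794, so a call after adjustment needs many genes at that value. The smallest adjusted p over all genes was 0.809 here, so a small difference could not have been called.

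Among 13 other homeostatic genes, 9 rose and 1 fell in ATXN1[82Q] against wild type, with a median log2 fold change of 0.49. Lag3, an inhibitory receptor gene, went from 1.61 to 3.81 CPM (2.36-fold, edgeR adjusted p = 2.94e-05). P2ry6, a receptor gene for UDP that takes part in phagocytosis, went from 0.933 to 1.82 CPM (1.95-fold, adjusted p = 0.000151), and Cd33, a sialic acid-binding lectin gene, from 1.30 to 2.41 CPM (1.86-fold, adjusted p = 0.00118). The gene that fell was Golm1, a Golgi membrane protein gene, at 87.6 CPM in wild type and 73.6 CPM in ATXN1[82Q] (edgeR adjusted p = 3.8e-05). In tissue RNA the cells behind a listed gene, in this list or another, were not identified, whether it rose or fell. With the substituted transgene none of the 13 was called against wild type (median 0.12), and between the transgenes 8 were higher and 1 lower in ATXN1[82Q]. In ATXN1[82Q] against wild type, 8 of these 13 genes had a lower and 1 a higher ratio to the pan-leukocyte genes. Over all genes 84.0% were called lower and 0.568% higher. Between the transgenes 9 of the 13 were lower and 0 higher, against 83.0% and 0.278% of all genes.

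Genes linked to activated microglia also rose, with higher list medians. All 7 complement and adaptor genes rose (median 1.17 on the log2 scale), among them C1qa (2.29-fold) and C1qb (2.27-fold), subunits of the first complement component, and Tyrobp (2.26-fold), the adaptor of TREM2. Of 21 tested disease-associated microglia genes, 20 rose, with a median of 1.06. The largest were Cst7, a cystatin gene, Ch25h, cholesterol 25-hydroxylase, and Itgax, the CD11c integrin gene, at 9.94, 8.46 and 8.15-fold, with wild-type levels of 0.0831, 0.132 and 0.244 CPM that rest on few reads. Ch25h was also the 1 listed gene called with the substituted transgene, at 0.416 CPM (log2 fold change 1.61, edgeR adjusted p = 0.02). Between the transgenes, 7 of 7 complement and adaptor and 19 of 21 disease-associated genes were higher in ATXN1[82Q]. The median over the 9 homeostatic members, 0.59, was below those of both lists, and the difference between lists was not tested.

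Of 13 regulator genes, 6 rose and none fell in ATXN1[82Q]. Spi1 went from 1.00 to 2.14 CPM (2.12-fold, edgeR adjusted p = 0.000463), and Irf8 went from 1.89 to 3.72 CPM (1.96-fold). Sall1, at 1.30-fold, had a smaller fold change than these factors, a difference that was not tested. Of 10 tested ligand and partner genes, 5 rose and 1 fell. Il34 went from 8.16 to 10.6 CPM (1.30-fold, adjusted p = 0.01) and Csf1 from 26.5 ± 3.26 to 31.9 ± 3.38 CPM (SD, n = 5, 1.21-fold, adjusted p = 0.0188). Libraries of the genotypes overlapped in both genes. Cx3cl1 went from 83.3 to 96.2 CPM (1.15-fold, adjusted p = 0.00127), and Syk, a kinase downstream of TYROBP, rose 1.75-fold (adjusted p = 0.00417). The gene that fell was Abhd16a, from 214 to 187 CPM (adjusted p = 4.55e-05). None of these regulators and ligands was called with the substituted transgene against wild type, with list medians of 0.06 and 0.02. Between the transgenes 7 regulators were higher and 1 lower in ATXN1[82Q], and 2 ligand and partner genes were higher and 1 lower.

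Several members are not restricted to microglia, and markers of other cells moved too. Of 11 border macrophage markers, 6 rose in ATXN1[82Q], led by Siglec1 (2.11-fold), Ms4a7 (2.04-fold) and Mrc1 (2.03-fold, from 4.78 to 9.72 CPM). Cd163, a defining marker of these macrophages, was at 2.66 CPM in wild type and 2.11 CPM in ATXN1[82Q] (adjusted p = 0.0786), and Lyve1, Folr2, Pf4 and Cd209f were not called. The 11 together summed to between 23.2 and 29.8 CPM in wild-type libraries, 37.7 and 47.5 CPM in ATXN1[82Q] libraries and 23.6 and 32.7 CPM in those of the substituted transgene. Their part in the rise of the 9 genes was not tested.

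Markers of blood-borne leukocytes were near 0. The 13 markers summed to 1.72 to 2.67 CPM in wild type, 1.74 to 3.52 CPM in ATXN1[82Q] and 1.62 to 1.83 CPM with the substituted transgene, 10 of them had too few reads to be tested, and Cd3d of T cells had no read in 9 libraries. Cd79a of B cells was the 1 called, at 1.47-fold (adjusted p = 0.0468). Of 7 oligodendrocyte genes 6 rose, led by Cldn11 (1.32-fold), Mbp (1.27-fold) and Mag (1.24-fold). Their sums ran from 4848 CPM, in wild-type replicate 2, to 7166 CPM in wild type and from 7083 to 8980 CPM in ATXN1[82Q].

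Brainstem neuron markers summed to 63.0 and 79.5 CPM in ATXN1[82Q] replicates 2 and 5 and to 20.5 to 39.4 CPM in the wild-type and substituted-transgene libraries. Slc5a7, the choline transporter gene, was the 1 of 4 tested that was called (2.68-fold, adjusted p = 0.013). The mean of the 9 homeostatic genes in ATXN1[82Q] replicates 1 to 5 lay 0.75, 0.58, 0.63, 0.49 and 0.65 above wild type on the log2 scale, so replicates 2 and 5 lay within the range of the other libraries. Without these 2 libraries all 9 genes were still called against wild type, among 3883 called over all genes (4993 in all libraries). In the direct comparison, with 3215 called over all genes (4454 in all libraries), P2ry13 (edgeR adjusted p = 0.0618) and Sall1 (0.212) were not. None of the 7 choroid plexus genes was called. In ATXN1[82Q] against wild type all 7 nevertheless had log2 fold changes above 0, with a median of 1.05. Ttr stood at 2278 ± 2168 against 988 ± 1635 CPM (SD, n = 5), and the libraries overlapped. With so wide a spread, the lack of calls does not show that the genotypes held equal amounts of choroid plexus transcripts.

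The genes outside all lists whose log2 CPM followed the mean of the 9 members most closely over the 15 libraries were Mpeg1, Tprkb, Serpina3n, Pla2g7, Cd44, Gja1, Gfap and C4b, with Pearson's r from 0.962 to 0.986. These correlations span the genotype difference and describe it as much as anything else. After each genotype's mean was removed, r was 0.805 for Mpeg1, a perforin-like gene of macrophages, and 0.784 for Tprkb, a kinase-binding protein gene. It was 0.421 for Gfap, the astrocyte filament gene, and 0.397 for the complement gene C4b, which had the larger changes of these 8 (3.12-fold and 3.17-fold). All 15 libraries share 1 normalisation, and the values are descriptions.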

How the data were processed

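Cerebellar RNA of 15 libraries was measured. An amplification kit primed at poly(A) tails and random positions was used on 10 ng of RNA, and inserts were 400 bp long, per the labels' protocols. Per the submitters' processing notes, the authors used STAR 2.5.3a, HTSeq, DESeq2 and the build mm10. The deposited counts are whole numbers per gene, not normalised. Strand, counting mode and annotation release were not stated in the sources read. Rows naming no gene (no feature, 16.8% to 18.2% of reads, ambiguous, 1.18% to 1.25%, and not unique, 12.8% to 14.6%) were left out.

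The quasi-likelihood F-test of edgeR 4.0.16 (R 4.3.3) was run on all 15 libraries in a single fit, with TMM factors of 0.968 to 1.04, filterByExpr at a minimum count of 10 and Benjamini-Hochberg adjustment over 15843 genes at 0.05. CPM were TMM-scaled. Log2 ratios used a prior count of 2. Reads were amplified and carry no molecular identifiers, so they are not independent molecules. Every one of 30 within-genotype pairs of libraries differed beyond counting noise (chi-square over its degrees of freedom, 5.49 to 38.8). Positions came from GENCODE M21 (GRCm38) and promoters from RefSeq (GRCm38.p6).

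The members and gene lists were chosen with earlier results of these data known. Named genes were the 9 members, Csf1, Il34 and Cx3cl1, per list the 3 called genes with the largest change in ATXN1[82Q] against wild type, listed genes called with the substituted transgene and the 8 genes most alike in pattern. Some genes under this rule are not reported here. Golm1, Abhd16a, Cd163 and other marker genes outside this rule were picked with their values in view. The pipeline was tested on simulated data. Alternatives were DESeq2 1.42.0, RLE size factors, a fit of the compared genotypes alone, a fit with all counted genes, the replicate number as a block, Ttr as a covariate, another reference or prior count for the ratio, libraries with Ttr under 100 CPM, and libraries left out.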

Additional observations from a re-analysis of the deposited data

Results flagged for a closer look

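Of 54 sets of 5 libraries examined for a library that stands apart (9 genes, 3 genotypes, CPM and log2 ratio), 3 held such a library, and chance alone marks about 1 in 20. P2ry13 in ATXN1[82Q] had 9.79 CPM in replicate 5, with the other 4 libraries between 7.95 and 8.41 CPM. Siglech in ATXN1[82Q] had 6.75 CPM in replicate 1, with the others between 4.67 and 5.14 CPM. The log2 ratio of Siglech to the pan-leukocyte genes was -0.00257 in wild-type replicate 2, with the others between 0.114 and 0.160.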

How the results depend on the processing

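Across 621 alternatives for the members' fold changes, 605 were counted as the same, 15 lost a call and 1 moved (Gpr34 with the substituted transgene against wild type, -0.07). Some counted as the same changed sign near 0 without a call. With the substituted transgene against wild type, the log2 fold change went down to -0.02 for Tmem119 and -0.06 for Fcrls. Of 369 alternatives for the ratios, 356 were counted as the same. These too included changes of sign near 0, such as P2ry12 with the substituted transgene against wild type (0.01 in all libraries, down to -0.02). In libraries with Ttr under 100 CPM, 3234 genes were called in ATXN1[82Q] against wild type (4993 in all libraries) and 1512 between the transgenes (4454), with 5 members called between the transgenes. Fewer libraries enter there. DESeq2 called 429 genes with the substituted transgene against wild type, where edgeR called 223. The cause was not tested. With the complement and adaptor reference 7 members had lower ratios in both comparisons of ATXN1[82Q], where 90.7% and 88.6% of all genes were called lower. The Cx3cr1 ratio turned to -0.23 and the Fcrls ratio to -0.00.

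On leaving out 1 library at a time, the members called stayed at 9 to 9 in ATXN1[82Q] against wild type (all genes 3909 to 5377), at 0 to 0 with the substituted transgene (all genes 136 to 307) and at 8 to 9 between the transgenes (all genes 3502 to 4648). The 136 genes were without replicate 2 of the substituted transgene, and 142 and 143 were called without its replicate 4 and without wild-type replicate 2. Members with a higher ratio between the transgenes numbered 0 to 1. Libraries with the same replicate number deviated together, at a correlation above 0.1, in 4 of 15 pairs (median -0.109, range -0.434 to 0.568). The main fit did not pair libraries by replicate number, and whether some of these pairs share a batch was not tested. With the number as a replicate block, ATXN1[82Q] against wild type had 9 members and 4681 genes called, the substituted transgene had 0 and 174, and the direct comparison had 9 and 4152. Fcrls had the fewest reads of the members, from 43 in a library.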
